A study of Mus musculus with 48 samples.

Results

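Thrsp, Pnpla3, Txnip and Arrdc4 are genes that respond to carbohydrate, and they were taken by symbol from the gene count table of mouse sWAT. They make 4 of the 54532 genes listed, and all 4 were among the 19977 genes that passed the expression filter. Thrsp and Pnpla3 act in fat synthesis and are called the lipogenic pair here, and Txnip and Arrdc4 act on glucose uptake and are called the glucose-sensing pair.

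The study sequenced poly-A RNA of the inguinal depot (iWAT, or sWAT in the study's terms) of C57BL/6 mice aged 8 months, all males according to its methods, with no transgene or deletion named. TAN (twice-a-night) mice were fed only in an early and a late window of the dark phase, which ran from 8 PM to 8 AM, and Ad-Lib controls ate freely. Each diet was sampled at 6 time points with 4 libraries at each, 48 in all, and tissue was taken at sacrifice, so that a time course is a series of different mice. The methods add that TAN mice ate somewhat less than their controls, so that meal timing and intake cannot be told apart in these groups.

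Total counts ranged from 15636378 to 29913310 per library (median 20882118), and mitochondrially encoded genes held 3.41% to 11.9% of them. The series text calls the material a stromal vascular fraction and the study calls it whole sWAT. The 9 adipocyte markers looked up (Adipoq, Plin1 and others) all passed the filter and summed to between 8783 and 67270 CPM (counts scaled to library size with TMM factors) in every library. The 10 lymphocyte markers summed to under 50 CPM in 10 libraries (4 Ad-Lib and 6 TAN) and reached 2990 CPM in others, and 2 TAN libraries of 8 PM (replicates 1 and 2) stood apart on the second principal component. Member results whose call or direction turned on these libraries are given with and without them. Sizes also moved without a change of call, and examples are given with the dependence on processing. Times are those on the sample labels. The study's own tables of single libraries list each of the 48 libraries under a time 12 h apart from its label, which exchanges 8 AM with 8 PM, 12 PM with 12 AM and 4 PM with 4 AM. The clock gene Dbp was highest at 4 PM in both diets under the labels, with a mean of 102 ± 19.9 CPM (SD, n = 4) in Ad-Lib and 154 ± 58.02 CPM in TAN mice. Diets compared at a time point hold the same mice under either naming.

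When sugar enters a cell, its phosphates activate the paired transcription factors ChREBP (Mlxipl) and MondoA (Mlxip), which bind DNA with Mlx at carbohydrate response elements, a pair of CACG-containing motifs at a fixed distance. Insulin acts beside them through SREBP-1c (Srebf1), and adipose tissue uses both inputs to set fat synthesis. Thrsp (Spot 14) promotes fatty acid synthesis in lipogenic tissues, and Pnpla3 encodes a lipid droplet protein of the same family as adipose triglyceride lipase. Txnip encodes an arrestin-like protein that binds thioredoxin and holds back glucose uptake, and Arrdc4 encodes a related arrestin-like protein that also holds back glucose uptake.

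On GRCm38, Thrsp (ENSMUSG00000035686) lies at chr7:97412938-97417730 on the minus strand and Pnpla3 (ENSMUSG00000041653) at chr15:84167837-84187236 on the plus strand. Txnip (ENSMUSG00000038393) lies at chr3:96557957-96561883 on the plus strand and Arrdc4 (ENSMUSG00000042659) at chr7:68736995-68749241 on the minus strand. The antisense gene Gm15441 runs across Txnip, and whether counting used strand is not given in the sources used here. Gm15441 was assigned 933 counts over the 48 libraries against 1227482 for Txnip. Within Pnpla3 (220830 counts), Mir6392, Gm49513 and Gm20369 were assigned 1368, 186 and 362 counts.

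Promoter windows of all 4 genes were found in RefSeq (GRCm38.p6), each with 250 bases before the start site and 50 after, and both strands were searched for motifs of this pathway. A direct-repeat arrangement of such an element, CACG and again CACG after 7 bases, was present once in the Txnip window and in 0.615% of all 32851 windows of this length. Its inverted form, CACG followed after 9 bases by CGTG, was in none of the 4 windows and in 0.28% of all. A single CACGTG was present once in the Arrdc4 window and in 7.15% of all windows. The CCAAT box was present 2 times in Txnip, 6 times in Arrdc4, 2 times in Thrsp and once in Pnpla3, and in 37.4% of all windows. The Thrsp and Pnpla3 windows held neither CACG arrangement, which says only that these letters are not in these windows. For Thrsp the RefSeq start site lies inside the gene as placed above, whose 5′ end is at 97417730. The Thrsp stretch below therefore lies within those gene coordinates. The following stretches are shown because they hold the CACG motifs found in the glucose-sensing windows, with a CCAAT stretch of each lipogenic gene beside them, 5′ to 3′ on the gene's strand and with the motif and any bases between its parts in capitals.
Txnip, chr3:96557866-96557893, plus strand, motif at -85 to -71 from the start site: actgtgCACGAGGGCTGCACGagcctcc
Arrdc4, chr7:68749415-68749442, minus strand, motif at -193 to -188: aaggtcctgtgCACGTGcactatggtgt
Thrsp, chr7:97417586-97417613, minus strand, motif at -52 to -48: gctgtgttgctCCAATggttgggctttg
Pnpla3, chr15:84167706-84167733, plus strand, CCAAT on the opposite strand at -99 to -95: ccagtacgcccATTGGgcctcccactgg

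Thrsp was among the most abundant transcripts of this tissue, ranked 17 by mean CPM among all genes listed, and Arrdc4 was the lowest of the 4, ranked 4465. By the authors' mean FPKM per group, which is scaled for gene length, Thrsp ranged from 299.9 to 4989, Txnip from 183 to 568, Pnpla3 from 63.4 to 220.5 and Arrdc4 from 8.01 to 13.997 over the 12 groups. The glucose-sensing pair varied less between libraries than most genes, with dispersions of 0.0813 for Txnip and 0.0781 for Arrdc4 against a median of 0.214 over all genes tested, while Thrsp (0.260) and Pnpla3 (0.206) lay near that median. With the 12 groups placed in order of their mean CPM, all 11 pairs of neighbours overlapped for each of the 4 genes, so that only groups further apart in the order were separate. Of the 24 combinations of gene and time point, 2 passed the test between diets (adjusted p under 0.05), both at 4 PM, where 15.3% of all genes tested passed in either direction.

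**Figure D1:**
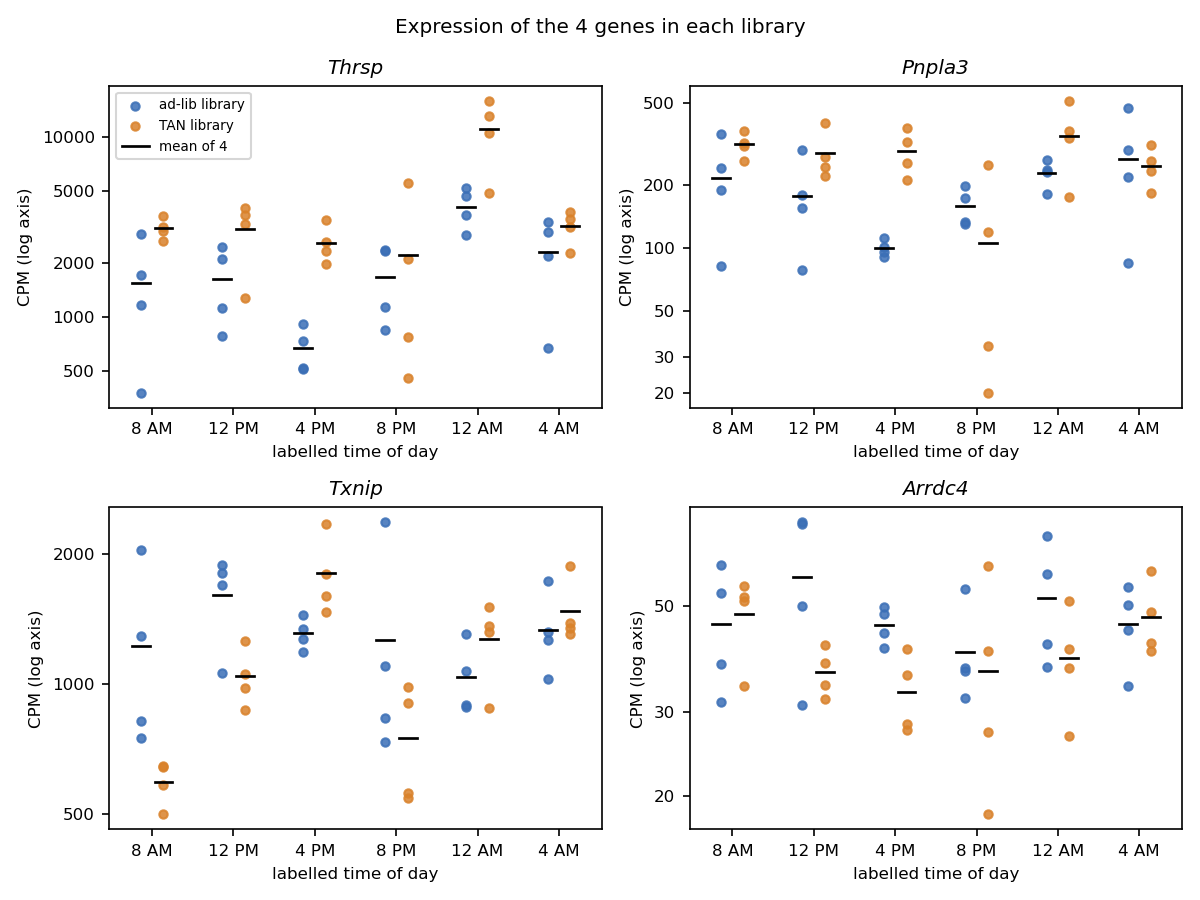
CPM (log axis) of Thrsp, Pnpla3, Txnip and Arrdc4 in each of the 48 libraries by labelled time, Ad-Lib in blue and TAN in orange, with a bar at the mean of 4. At 4 PM all 4 TAN libraries lie above all 4 Ad-Lib libraries for Thrsp, Pnpla3 and Txnip and below them for Arrdc4. Of all genes tested, 12.8% lay wholly above and 17.8% wholly below in this way at 4 PM.

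Thrsp was higher under TAN feeding over the day as a whole. Averaged over the 6 time points, the log2 fold change of TAN over Ad-Lib was 1.04 (SE 0.22), a 2.05-fold higher level, and it passed the quasi-likelihood test of edgeR after Benjamini-Hochberg adjustment over all genes (adjusted p = 0.00439). Of all genes tested, 5.42% passed this test and 2.68% passed it with a higher level under TAN. The fitted difference was positive at 6 of 6 time points, from 0.41 at 8 PM to 1.95 at 4 PM, but at 8 PM its sign turned with limma voom, either marker covariate or the replicate block, without the libraries of low lymphocyte sum (-0.56) and without TAN replicate 4 (-0.58). Among the 4 genes, Thrsp alone passed the test of the mean over the day.

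At 4 PM the Ad-Lib libraries had 911, 735, 519 and 507 CPM of Thrsp and the TAN libraries 2589, 1951, 2330 and 3453 CPM. The 4 TAN libraries were all above the 4 Ad-Lib libraries, the means being 668 ± 193 and 2581 ± 638 CPM (SD, n = 4). The log2 fold change was 1.95 (SE 0.55), 3.86-fold, with an adjusted p of 0.0205. At this time point 6.54% of all genes tested passed with a higher level under TAN, and 12.8% of all genes tested had all TAN libraries above all Ad-Lib libraries.

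The tissue also differed in its cell markers at 4 PM. The lymphocyte markers summed to between 927 and 1583 CPM in the Ad-Lib libraries and to between 9.02 and 366 CPM in the TAN libraries, and the adipocyte markers to between 17519 and 25363 CPM and between 38909 and 67077 CPM. The macrophage markers (4 genes) summed to between 1058 and 1784 CPM and between 245 and 1239 CPM. In bulk tissue, more cells of a type and more RNA per cell cannot be told apart. With the mean of the lymphocyte markers as a covariate the Thrsp difference at 4 PM was 1.07 (adjusted p = 0.359), and with that of the adipocyte markers it was 0.81 (adjusted p = 0.347). Of all 19977 genes, 0 passed at 4 PM with the lymphocyte covariate and 34 with the adipocyte covariate. Both marker sums separated the diets at 4 PM, so a call lost there was not particular to a gene. The Thrsp mean over the day stayed past the threshold under these covariates and all other alternatives run, with log2 fold changes between 0.80 and 1.17 and adjusted p-values between 8.96e-05 and 0.0188.

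Thrsp reached its highest level at 12 AM in both diets. The Ad-Lib libraries then had 4676, 5190, 3704 and 2832 CPM and the TAN libraries 4909, 15990, 13097 and 10537 CPM. TAN replicates 2, 3 and 4 exceeded every Ad-Lib library and TAN replicate 1 lay among them. The difference was 1.44 (SE 0.55) with an adjusted p of 0.182, at a time point where 0.15% of genes passed and the median of all genes was -0.14. The adipocyte markers summed to between 32412 and 65537 CPM in these TAN libraries and between 25162 and 34716 CPM in the Ad-Lib libraries.

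At the other time points the diets overlapped and no difference in Thrsp passed. At 8 AM the Ad-Lib libraries spread from 375 to 2899 CPM (median 1432) and the TAN libraries lay between 2649 and 3626 CPM (median 3075), with a log2 difference of 1.02 (SE 0.54, adjusted p = 0.774), which passed with the adipocyte covariate (1.48, adjusted p = 0.0456). At 12 PM the ranges were 779 to 2455 CPM and 1272 to 4038 CPM, with a difference of 0.93 (SE 0.54). At 4 AM they were 671 to 3353 CPM and 2271 to 3829 CPM, with a difference of 0.48 (SE 0.54), and 0.16 without Ad-Lib replicate 1. At 8 PM the TAN libraries held both the lowest and the highest value, 455 and 5546 CPM, around Ad-Lib values of 837 to 2337 CPM. The difference there was 1.196 without TAN replicates 1 and 2 (adjusted p = 0.142). The shares of all genes that passed were 0.015% at 8 AM, 0.0901% at 12 PM, 11.7% at 8 PM and 0% at 4 AM, where 527 genes had an unadjusted p under 0.05.

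Over the day, the group means of Thrsp spanned 6.14-fold in Ad-Lib mice, from 668 CPM at 4 PM to 4100 CPM at 12 AM, and 5.03-fold in TAN mice, from 2214 CPM at 8 PM to 11133 CPM at 12 AM. Variation over time within TAN passed the test (adjusted p = 0.00620), as it did for 23% of all genes. Within Ad-Lib it did not pass (adjusted p = 0.223), although the unadjusted p was 0.00133, and only 0.0551% of all genes passed there. The adjusted p within Ad-Lib was under the threshold with DESeq2 (0.0171) and with either marker covariate (0.0219 and 0.00242). Whether the TAN effect itself differed between time points was tested and did not pass for Thrsp (adjusted p = 0.507), where 8.98% of all genes did.

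Pnpla3 followed Thrsp at 4 PM with a smaller change. The Ad-Lib libraries had 95.5, 112, 90.8 and 101 CPM and the TAN libraries 212, 323, 257 and 378 CPM. The Ad-Lib libraries lay close together and all below the TAN libraries, with means of 99.9 ± 9.12 and 293 ± 72.7 CPM (SD, n = 4). The log2 fold change was 1.55 (SE 0.48), 2.93-fold, with an adjusted p of 0.0283 by edgeR's test. Of all genes tested, 6.54% passed as higher at 4 PM and 12.8% had all TAN libraries above all Ad-Lib libraries. With the lymphocyte or adipocyte markers as a covariate the Pnpla3 difference was 0.60 (adjusted p = 0.518) or 0.52 (adjusted p = 0.513), where 0 and 34 of 19977 genes passed. The markers moved with the diets at this time point as given for Thrsp.

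The 4 PM calls of the lipogenic pair also depended on single libraries. Thrsp missed the threshold without Ad-Lib replicate 3 (adjusted p = 0.0723), without Ad-Lib replicate 4 (0.0581) and without TAN replicate 1 (0.0552), while its difference stayed between 1.77 and 2.16. Pnpla3 missed it without Ad-Lib replicate 1, 3 or 4 (0.0554, 0.0835 and 0.0623) and without TAN replicate 1 or 4 (0.0552 and 0.0638), with differences between 1.401 and 1.68. Without the libraries whose lymphocyte markers summed to under 50 CPM, which include TAN replicates 1, 2 and 4 of 4 PM, Thrsp differed by 1.79 (adjusted p = 0.105) and Pnpla3 by 1.35 (adjusted p = 0.147).

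Pnpla3 did not pass the test of the mean over the day, where its log2 difference was 0.45 (SE 0.19, adjusted p = 0.158). It was positive at 4 and negative at 2 of the 6 time points. At 8 PM the Ad-Lib libraries had 134, 198, 130 and 174 CPM and the TAN libraries 33.7, 20.1, 120 and 250 CPM. The TAN libraries thus spanned a wider range, as a ratio of highest to lowest, than at any other time, and the low values came from replicates 1 and 2, in which the adipocyte markers summed to 13302 and 8783 CPM. The difference at 8 PM was -0.59 (SE 0.47, adjusted p = 0.448) with these libraries and 0.21 without them, and the mean over the day then passed the threshold (0.58, adjusted p = 0.0140). In the other direction, the 8 PM difference passed as lower under TAN with the lymphocyte covariate (-1.05, adjusted p = 0.0386) and the adipocyte covariate (-1.19, adjusted p = 0.00443). It also passed without the libraries of low lymphocyte sum (-1.43, adjusted p = 0.0285) and without TAN replicate 4 alone (-1.45, adjusted p = 0.0314). All-gene calls at 8 PM also rose with the covariates, from 2333 of 19977 to 3880 (lymphocyte) and 4939 (adipocyte). They were 4116 of 23845 without the libraries of low lymphocyte sum.

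At 12 AM the Ad-Lib libraries had 182 to 265 CPM of Pnpla3 and 3 of the 4 TAN libraries lay above them, at 337, 365 and 511 CPM, with TAN replicate 1 below them at 176 CPM (difference 0.60, SE 0.47, adjusted p = 0.525). At 8 AM, 12 PM and 4 AM the groups overlapped, with differences of 0.54, 0.69 and -0.11 (each SE 0.47). The group means spanned 2.68-fold in Ad-Lib mice (99.9 CPM at 4 PM to 267 CPM at 4 AM) and 3.28-fold in TAN mice (106 CPM at 8 PM to 347 CPM at 12 AM). Neither variation over time within Ad-Lib (adjusted p = 0.786), nor that within TAN (adjusted p = 0.0741), nor a difference in the TAN effect between time points (adjusted p = 0.169) passed. Without TAN replicate 4 of 8 PM the last of these was 0.0223 and that within TAN 0.00405, and the latter was 0.0453 without TAN replicate 1 of 12 AM.

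The glucose-sensing genes gave other patterns. Txnip was the only gene of the 4 for which the TAN effect itself differed between time points by the test across all genes (adjusted p = 0.0350), being lower under TAN at 8 AM, 12 PM and 8 PM and higher at 4 PM, 12 AM and 4 AM in the fitted values. Its mean difference over the day was -0.26 (SE 0.12, adjusted p = 0.200). None of the differences at a single time point passed. The test of the effect between time points lost its call without Ad-Lib replicate 4 of 8 AM (adjusted p = 0.0618), TAN replicate 4 of 8 AM (0.0527), Ad-Lib replicate 3 of 4 PM (0.0512) or TAN replicate 1 of 4 PM (0.0582). It also lost it with the lymphocyte covariate (0.131), without the libraries of low lymphocyte sum (0.279) and with same-numbered libraries as a replicate block (0.0769).

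At 8 AM the Ad-Lib libraries had 820, 749, 1293 and 2049 CPM of Txnip and the TAN libraries 644, 644, 584 and 499 CPM. All 4 TAN libraries lay below the Ad-Lib libraries, which 1.05% of all genes did at this time point. The log2 fold change was -1.05 (SE 0.30), a level 2.07-fold lower under TAN, with an unadjusted p of 9.93e-04 and an adjusted p of 0.374 by edgeR's test. Ad-Lib replicate 4, the highest, had lymphocyte markers at 38.0 CPM, against 309 to 2228 CPM in the other Ad-Lib libraries and 1004 to 1601 CPM in the TAN libraries of 8 AM. The difference was -0.67 without the libraries of low lymphocyte sum and -0.69 without this library alone.

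At 4 PM the order was turned. The Ad-Lib libraries had 1276, 1448, 1185 and 1342 CPM of Txnip and the TAN libraries 2351, 1601, 1469 and 1804 CPM, so that the diets did not overlap, in a direction that 12.8% of all genes showed at this time point against the 1.05% given for 8 AM. The difference was 0.46 (SE 0.29, adjusted p = 0.277), and 0.15 without the libraries of low lymphocyte sum, which leaves 1 TAN library at this time. At 8 PM the TAN libraries had 559, 545, 987 and 902 CPM and the Ad-Lib libraries 837, 735, 1105 and 2375 CPM. The difference there was -0.76 (SE 0.29, adjusted p = 0.0822). With the lymphocyte or adipocyte covariate it passed (adjusted p = 0.0294 and 0.0259), as did 3880 and 4939 of 19977 genes, against 2333 without a covariate. Without Ad-Lib replicate 4, the highest library, it was -0.26 (adjusted p = 0.612), and without TAN replicates 1 and 2 it was -0.42 (adjusted p = 0.423). At 12 PM the TAN libraries lay between 870 and 1262 CPM and the Ad-Lib libraries between 1059 and 1888 CPM, with a difference of -0.63 (SE 0.29, adjusted p = 0.649). At 12 AM and 4 AM the differences were 0.29 and 0.15 (each SE 0.29).

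Within TAN mice Txnip moved across the day while within Ad-Lib mice it did not pass. Its TAN group means spanned 3.05-fold, from 593 ± 68.9 CPM at 8 AM to 1806 ± 388 CPM at 4 PM, and variation over time within TAN passed (adjusted p = 0.00170), a call that was kept under all alternatives run. The 4 TAN libraries of 4 PM were all above those of 8 AM, 12 PM and 8 PM. In Ad-Lib mice the means spanned 1.55-fold, from 1039 CPM at 12 AM to 1612 CPM at 12 PM, and variation over time did not pass (unadjusted p = 0.441).

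Arrdc4, although related to Txnip, passed none of the tests between diets or over time. Averaged over the day its log2 difference was -0.26 (SE 0.11, adjusted p = 0.164). Its group means spanned 1.44-fold in Ad-Lib and 1.45-fold in TAN mice, and variation over time passed in neither (unadjusted p = 0.510 and 0.279). Nor did its TAN effect differ between time points by the test (adjusted p = 0.506).

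At 4 PM the Ad-Lib libraries had 49.6, 40.8, 47.97 and 43.9 CPM of Arrdc4 and the TAN libraries 35.9, 28.4, 40.5 and 27.5 CPM. All TAN libraries were below all Ad-Lib libraries, as was the case for 17.8% of all genes, and the difference was -0.46 (SE 0.27, adjusted p = 0.238). With a separate fit of each time point the difference was -0.52 and passed (adjusted p = 0.0495). In that fit 4408 of 16196 genes passed at 4 PM, against 3057 of 19977 in the fit of all libraries. Without the libraries of low lymphocyte sum the Arrdc4 difference was -0.18, with only TAN replicate 3 left at 4 PM. At this time point Txnip and Arrdc4 thus separated the diets in opposite directions, neither difference passing in the fit of all libraries. At 12 PM the Ad-Lib libraries had 31.0, 73.9, 74.7 and 49.96 CPM and the TAN libraries 41.4, 34.2, 37.9 and 31.9 CPM, and the lowest Ad-Lib library lay below all TAN libraries. The difference was -0.66 (SE 0.27, adjusted p = 0.605). At 8 AM, 8 PM, 12 AM and 4 AM it was 0.07, -0.13, -0.41 and 0.05 (each SE 0.27).

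**Figure D2:**
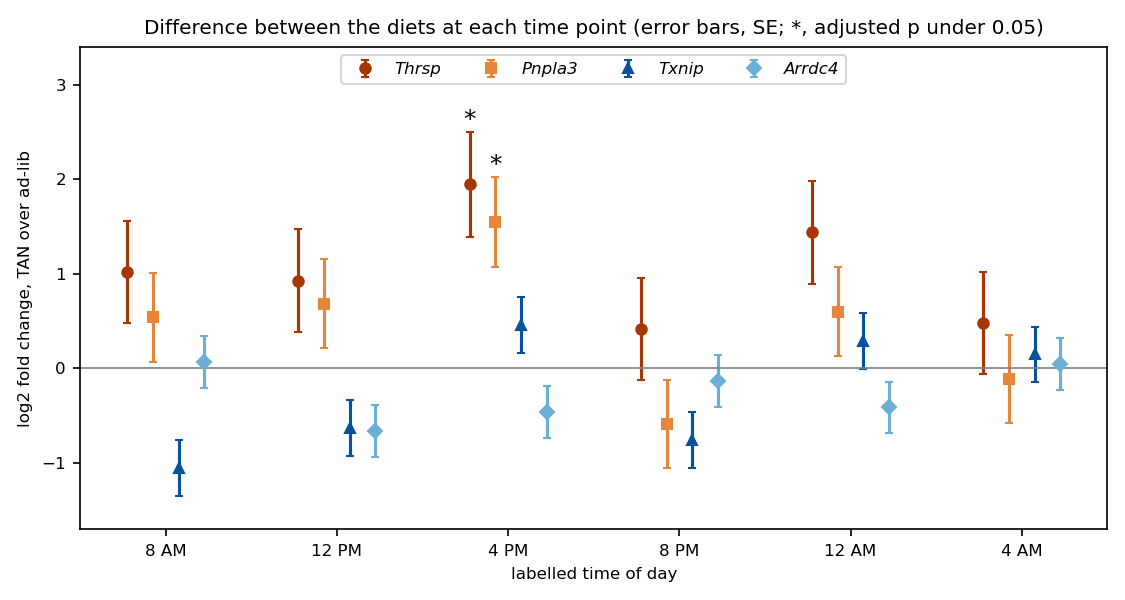
Log2 fold change of TAN over Ad-Lib at each labelled time for the 4 genes, from the fit of all 48 libraries, with error bars of 1 SE and a star where the adjusted p was under 0.05. Thrsp and Pnpla3 carry the stars, at 4 PM (1.95 and 1.55), and Thrsp lies above 0 at all 6 times while Txnip changes side.

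To set the pairs against each other, the mean log2 CPM of Txnip and Arrdc4 was subtracted from that of Thrsp and Pnpla3 in each library. This lipogenic minus glucose-sensing difference is taken within a library, so that library size cancels, and it is given as a description without a test. Over all times it had a median of 1.19 in the 24 Ad-Lib libraries (range -0.68 to 2.65) and of 2.24 in the 24 TAN libraries (range -0.06 to 3.53). Ad-Lib mice were lowest at 4 PM and TAN mice at 8 PM, and both were highest at 12 AM.

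The difference was higher under TAN feeding at 3 time points without overlap between the diets. How often other sets of genes separate the diets in this way was not computed. At 4 PM the Ad-Lib libraries had differences of 0.23, 0.24, -0.14 and -0.10 and the TAN libraries of 1.35, 1.90, 1.66 and 2.36. At 12 AM the Ad-Lib libraries lay close together at 1.98, 2.15, 2.12 and 2.02 and the TAN libraries at 2.36, 3.22, 3.15 and 3.53. At 12 PM they had 1.37, -0.34, 1.26 and 0.60 against 2.26, 2.19, 1.48 and 2.84. The means thus differed between the diets by 1.76 at 4 PM, 0.996 at 12 AM and 1.47 at 12 PM, against pooled SDs of 0.33, 0.36 and 0.68. The adipocyte markers, which within groups followed Thrsp and Pnpla3 more closely than Txnip or Arrdc4, also separated the diets at 4 PM (17519 to 25363 against 38909 to 67077 CPM), lay at 25162 to 34716 against 32412 to 65537 CPM at 12 AM and overlapped at 12 PM, and their part in the separation of the pairs was not tested.

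At 4 PM the fitted differences behind this were 1.95 for Thrsp, 1.55 for Pnpla3, 0.46 for Txnip and -0.46 for Arrdc4. Txnip and Arrdc4 thus opposed each other in the mean of their pair. At 12 AM the fitted differences were 1.44 for Thrsp, 0.60 for Pnpla3, 0.29 for Txnip and -0.41 for Arrdc4. At 12 PM the lipogenic genes were above and the glucose-sensing genes below 0. Without the libraries of low lymphocyte sum the diets differed in the pair difference by 1.61 at 4 PM, 0.69 at 12 AM and 2.06 at 12 PM. Only TAN replicate 3 was then left at 4 PM. At 8 AM the difference was 1.10 ± 1.41 in Ad-Lib and 2.56 ± 0.19 in TAN mice (SD, n = 4). The Ad-Lib libraries then spread from -0.68 to 2.65 and the highest of them lay within the TAN range of 2.31 to 2.71. At 8 PM (1.21 ± 0.38 and 0.995 ± 1.06) and 4 AM (1.44 ± 1.08 and 1.74 ± 0.45) the diets overlapped. The value at 8 PM was -0.21 for TAN minus Ad-Lib, and 0.62 without TAN replicates 1 and 2.

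**Figure D3:**
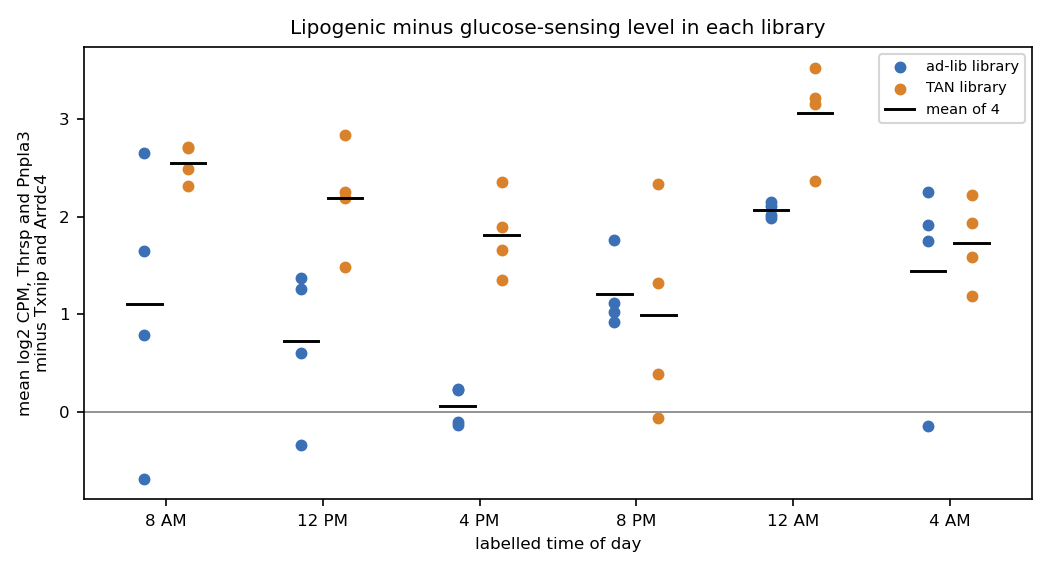
Mean log2 CPM of Thrsp and Pnpla3 minus that of Txnip and Arrdc4 in each library by labelled time, Ad-Lib in blue and TAN in orange, with a bar at the mean of 4. The diets do not overlap at 12 PM, 4 PM and 12 AM, where the means differ by 1.47, 1.76 and 0.996.

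Mice of the same diet and time point still differed from each other, and the lipogenic genes deviated together. After the mean of each of the 12 groups was subtracted, Thrsp and Pnpla3 had a Pearson r of 0.80 over the 48 libraries (permutation p = 1.0e-04, 6.0e-04 after Benjamini-Hochberg adjustment over the 6 pairs of genes). The Spearman rho was 0.65 (permutation p = 2.3e-04, adjusted 0.00138), and r was 0.73 without the 2 libraries farthest from the median of Thrsp. No relation of Txnip and Arrdc4 was detected, with an r of 0.14 (permutation p = 0.466, adjusted 0.559) and a rho of 0.11 (permutation p = 0.539, adjusted 0.568). For the 4 pairs across the kinds, r lay between 0.10 and 0.29, with adjusted permutation p-values between 0.441 and 0.712. For Pnpla3 and Arrdc4 the rho was -0.10, and r turned from 0.10 to -0.29 without the 2 libraries farthest from the median.

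Tissue markers moved with these deviations. The deviations of Thrsp and Pnpla3 had r of 0.80 and 0.80 with those of the mean of the adipocyte markers and of -0.54 and -0.65 with those of the lymphocyte markers. Txnip had 0.54 and -0.41, and Arrdc4 0.20 and 0.06. These marker correlations share libraries and depth with the genes and are given as a description. The part of the tissue make-up in the relation of Thrsp and Pnpla3 was not tested.

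**Figure D4:**
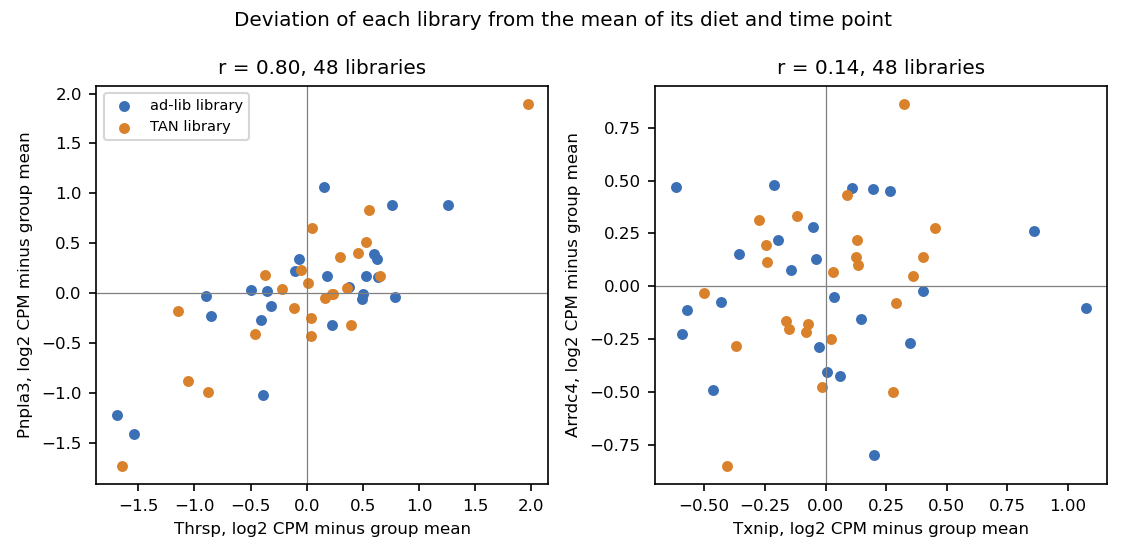
Log2 CPM of each library minus the mean of its diet and time point, Pnpla3 against Thrsp on the left and Arrdc4 against Txnip on the right, over 48 libraries. The points of the lipogenic pair rise together (r = 0.80) and those of the glucose-sensing pair scatter (r = 0.14).

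By median, libraries with few lymphocyte transcripts held more of Thrsp, Pnpla3 and Txnip and less of Arrdc4. Among Ad-Lib libraries the median of Thrsp was 2133 CPM in the 4 with a lymphocyte sum under 50 CPM and 1147 CPM in the other 20, and among TAN libraries 4500 CPM in 6 and 3157 CPM in 18. For Pnpla3 the medians were 242 and 165 CPM in Ad-Lib and 344 and 259 CPM in TAN libraries. For Txnip they were 1750 and 1145 CPM, and 1555 and 985 CPM. For Arrdc4 they were 43.6 and 46.2 CPM, and 32.1 and 40.4 CPM. The ranges of these sets overlapped for each gene within each diet. The sets also differ in time, since the 6 TAN libraries were 3 of 4 PM, 2 of 12 AM and 1 of 8 PM, where Txnip (4 PM) and Thrsp (12 AM) had their highest TAN means.

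Of 9 sugar and sterol responsive transcription factors tested, 1 passed between the diets at 4 PM and 1 at 8 PM. Of all genes, 15.3% and 11.7% passed at these time points. None of the 9 was higher under TAN at any time point. With at least 10 counts in every library, RLE factors, DESeq2 or limma voom, however, 1 was higher at 4 PM. Mlxip, which encodes MondoA, was lower at 4 PM (56.0 ± 11.7 CPM in Ad-Lib and 27.0 ± 7.84 CPM in TAN mice, SD, n = 4) with a log2 difference of -1.05 (SE 0.37, adjusted p = 0.0487). No factor was lower at 4 PM with same-numbered libraries as a replicate block or with either marker covariate. With these covariates 0 (lymphocyte) and 34 (adipocyte) of 19977 genes passed at 4 PM. Thrb, which encodes a thyroid hormone receptor, was lower at 8 PM (-1.62, SE 0.46, adjusted p = 0.0205), and no factor was lower then without TAN replicates 1 and 2 or with a separate fit of each time point. In the separate fit 55 of 16186 genes passed at 8 PM. Mlxipl, which encodes ChREBP, had 21.6 ± 3.34 and 38.0 ± 26.5 CPM at 4 PM and passed no test. Variation over time within TAN passed for Mlx (adjusted p = 0.00140), Srebf2 (0.0480) and Thrb (0.0390), as it did for 23% of all genes.

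Most of the fatty acid synthesis list was higher under TAN at 4 PM. Of 11 genes of fatty acid synthesis, including the Thrsp relative Mid1ip1 and its partner Mid1, 8 were higher under TAN at 4 PM and 0 lower, with a median log2 difference of 2.25 against -0.09 over all genes, of which 6.54% passed as higher. Elovl6, which elongates fatty acids, differed by 3.99 (SE 0.69, adjusted p = 0.00397), Acly, which makes cytosolic acetyl-CoA, by 3.01 (SE 0.56, adjusted p = 0.00600) and Fasn, the fatty acid synthase, by 2.51 (SE 0.56, adjusted p = 0.00905). The others that passed were Acss2, Acaca, Scd1, Scd2 and Me1, at 1.48 to 3.15. With the lymphocyte covariate none of the 11 passed at 4 PM, where 0 of 19977 genes did. With the adipocyte covariate 3 of the 11 did, against 34 of 19977 genes.

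At 12 PM 4 of the 11 passed (Acly, Acss2, Fasn and Elovl6, at 2.62 to 3.82), against 8 and 9 with the lymphocyte and adipocyte covariates and 0 with a separate fit of each time point. In the separate fit 1 of 16598 genes passed at 12 PM. In the fit of all libraries Thrsp differed by 0.93 and Pnpla3 by 0.69 at 12 PM without passing. The median over the list was 2.46 at 12 PM against 0.04 over all genes. In the mean over the day 9 of the 11 were higher and 0 lower, with a median of 1.36 against -0.08, and the counts were 9 with either covariate. The Thrsp mean of 1.04 and the Pnpla3 mean of 0.45 lay below this median. At the remaining time points none of the 11 passed, with medians of 1.11 at 8 AM, 0.20 at 8 PM, 1.38 at 12 AM and 0.98 at 4 AM. These counts depended on the setting. At 8 AM 3 passed as higher with DESeq2, 4 with the lymphocyte and 5 with the adipocyte covariate, and at 12 AM 5 did with DESeq2, 2 with RLE factors and 2 with the adipocyte covariate.

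Glucose entry changed in single genes. Of 10 genes of glucose entry and phosphorylation, Slc2a5, the fructose carrier, was higher at 12 PM (4.74, SE 0.83, adjusted p = 0.00412) and at 4 PM (4.49, SE 0.82, adjusted p = 0.00600), and Slc2a4, the insulin-responsive glucose carrier on which TXNIP acts, was higher at 4 PM (1.29, SE 0.45, adjusted p = 0.0448). At 4 PM none of the 10 passed with the lymphocyte covariate and 1 with the adipocyte covariate, where 0 and 34 of 19977 genes passed. At 12 PM none of the 10 did with the replicate block or without the libraries of low lymphocyte sum. The other 8 passed at no time point, and Slc2a5 and Slc2a4 were also higher in the mean over the day (3.19 and 0.62).

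Part of the thioredoxin system, to which the TXNIP partner thioredoxin belongs, was higher at 4 PM. Of its 7 genes, 4 passed as higher against 6.54% of all genes: Txn2 and Txnrd2 (the mitochondrial thioredoxin and its reductase) and Prdx1 and Prdx3 (peroxiredoxins) were higher at 4 PM, by 0.97 to 1.02, and Txn1 and Txn2 were higher at 8 PM, by 0.75 and 0.82. The count at 8 PM was 2 without TAN replicates 1 and 2 and 0 with a separate fit of each time point, in which 55 of 16186 genes passed then. None was lower at any time point. With either marker covariate none of the 7 passed at 4 PM, where 0 (lymphocyte) and 34 (adipocyte) of 19977 genes did.

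Among relatives by family, 1 gene of the PNPLA list passed between the diets, at 4 PM, where 15.3% of all genes did. Of 4 other alpha-arrestins, 3 were tested and none differed between the diets. Arrdc1 and Arrdc3 varied over time within TAN (adjusted p = 0.0171 and 0.00234), a test that 23% of all genes passed. Of 7 tested genes of the PNPLA lipases and their regulators, Pnpla7, a lysophospholipase, was lower at 4 PM (-0.78, SE 0.27, adjusted p = 0.0437). This call was lost with the replicate block and with either marker covariate, where 0 (lymphocyte) and 34 (adipocyte) of 19977 genes passed. In this list 1 gene was higher at 4 PM with at least 10 counts in every library or limma voom, and 2 were with DESeq2. In the same list G0s2, which holds back adipose triglyceride lipase, varied over time within TAN (adjusted p = 0.0202), with the same share of 23% over all genes. Directions of these list medians were the same with RLE in place of TMM factors, and RLE added calls of higher genes, 1 each to the transcription factors and the PNPLA list at 4 PM, 2 to fatty acid synthesis and 1 to glucose entry at 12 AM, and 1 to the thioredoxin system in the mean over the day.

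**Figure D5:**
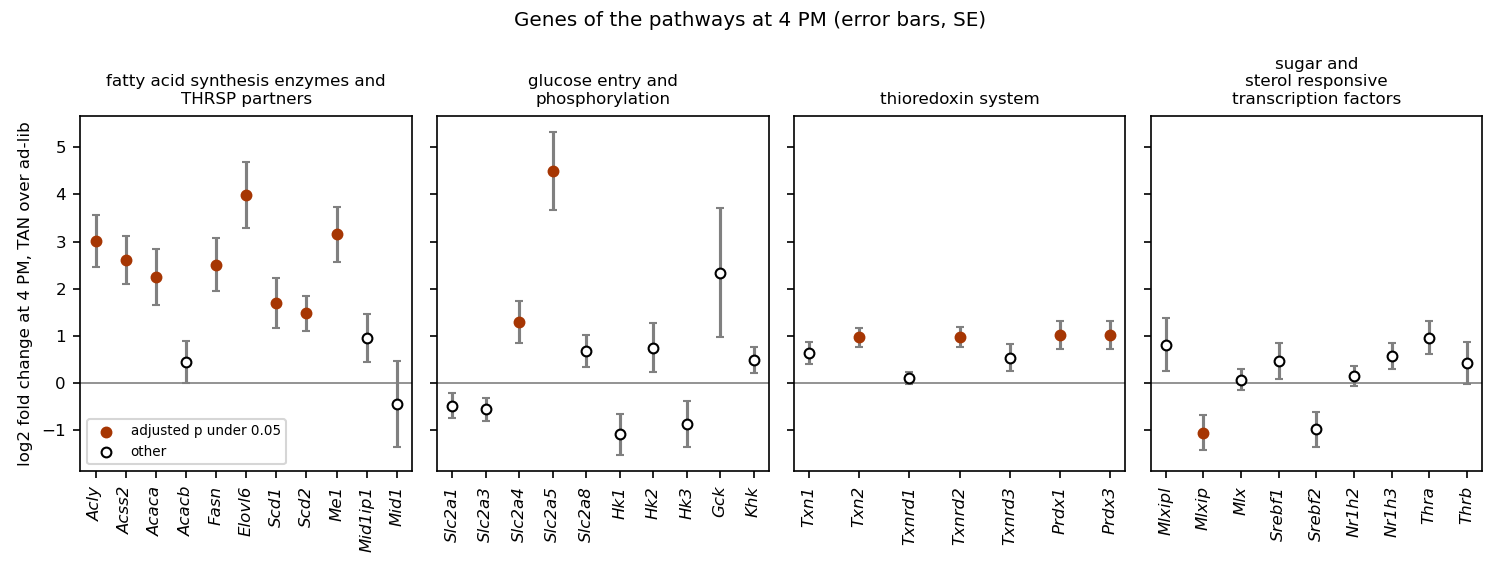
Log2 fold change of TAN over Ad-Lib at 4 PM with error bars of 1 SE for the tested genes of 4 lists, filled where the adjusted p was under 0.05. In the fatty acid synthesis list 8 of 11 genes are filled and all of these lie above 0, while Mlxip is the filled gene among the transcription factors and lies at -1.05.

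The genes most like each member over the 48 libraries were taken by Pearson r of log2 CPM. The 5 closest to Thrsp were Acat2 (0.95), Insig1 (0.92), Aacs (0.92), Pdhx (0.91) and Plin2 (0.90), of which Acat2 makes acetoacetyl-CoA, Insig1 is a sterol-regulated brake on SREBP processing and Plin2 coats lipid droplets. Those closest to Pnpla3 were Fam57b (0.91), C130074G19Rik (0.91), Rims4 (0.90), Pex11a (0.90) and Ptges (0.89). Over the 12 group means the r of these 10 genes lay between 0.90 and 0.97.

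The highest r of the glucose-sensing genes were lower. Txnip was most like Btc (0.77), Crebrf (0.75), Hbp1 (0.75), Plau (0.73) and Dhx40 (0.73), with 0.82 to 0.89 over the group means, and Arrdc4 most like Tgfa (0.64), Ifi44 (0.62), Ptn (0.61), Tnfsf10 (0.61) and Fxyd6 (0.61), with 0.63 to 0.69. The points share libraries and tissue make-up, and Thrsp, Pnpla3 and Txnip had r of -0.39, -0.48 and -0.49 with the mean of the lymphocyte markers, against 0.14 for Arrdc4.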

How the data were processed

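Bulk RNA-seq of sWAT was analysed in 48 libraries, and the sample labels gave the diet, time and replicate number of each (0 columns of sample values were left unused). Poly-A RNA was read from both ends on an Illumina platform. The authors deposited raw counts per gene and library without normalization. They also deposited FPKM values averaged over the 4 libraries of each group, which are printed only as the authors' means. The submitters' processing notes name TopHat 1.3.3, DESeq2 1.20.0, limma and edgeR without a role, and the counting tool is not given in the sources used here. The gene coordinates are those of GRCm38. The reads and other assays were not analysed here.

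The 4 genes and all lists were chosen with earlier results of these data known. TMM factors scaled the counts to CPM, and a prior count of 2 was added for log2 CPM. Genes were kept by filterByExpr (minimum count 10) and tested with edgeR 4.0.16 in R 4.3.3 by 1 robust quasi-likelihood fit over the 12 groups of diet and time, with contrasts at each time point, of the mean over the day, of the TAN effect between time points and of variation over time within a diet. P-values were adjusted by Benjamini-Hochberg over the 19977 genes tested, and a gene passed with an adjusted p under 0.05. Correlations between genes used residuals from the group means and 100000 two-sided permutations of libraries within groups. The fit was checked on simulated counts. The labels do not say whether libraries of a group came from separate cages, and p-values measure the spread between these libraries. No pairs of libraries held identical counts (0 pairs).

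Genes named beside the 4 were list genes that passed a test, and the 5 with the highest r for each member. Mlxipl, Mid1ip1 and Mid1 were named for their roles, and Mlx, Srebf2, Arrdc1, Arrdc3 and G0s2 after their variation over time was seen. The labels give no pairing behind the replicate numbers, and over 5000 genes 10 of 24 same-numbered pairs of TAN and Ad-Lib libraries had a correlation of residuals over 0.1 (median -0.01). Alternatives were no filter, at least 10 counts in every library, RLE factors, DESeq2 1.42.0, limma 3.58.1 voom, mitochondrially encoded genes left out, covariates for lymphocyte or adipocyte markers, a replicate block, separate fits per time point, an added fold threshold, another prior count and leaving out each library in turn. Leaving out the libraries that stood apart was added after seeing the data.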

Additional observations from a re-analysis of the deposited data

Results flagged for a closer look

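The TAN effect on Txnip differed between the time points by edgeR's quasi-likelihood test of the difference itself (adjusted p = 0.0350, with 0.00270 to 0.131 over the other settings, 0.0264 and 0.279 without the libraries that stood apart, and 0.00884 to 0.0618 with single libraries left out). The 48 combinations of gene and group, each of 4 libraries, were examined for a value far from the others. In 2 of them a single value stood out, where chance gives about 1 in 20. In TAN mice at 4 AM, replicate 1 had 1880 CPM of Txnip against 1307 to 1385 CPM in the other libraries, a gap of 0.841 of the whole log2 range. In TAN mice at 8 AM, replicate 3 had 33.9 CPM of Arrdc4 against 51.2 to 55.0 CPM in the others, a gap of 0.850 of the range.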

How the results depend on the processing

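The mean TAN effect on Thrsp and the variation over time of Thrsp and of Txnip within TAN stayed past the threshold under all alternatives run. Of the 24 combinations of gene and time point 2 passed, and 1 passed without a filter on low counts. Without the libraries of low lymphocyte sum neither 4 PM call was held, with only TAN replicate 3 left at 4 PM. The 1 combination that then passed edgeR's test was Pnpla3 at 8 PM, lower under TAN (-1.43, adjusted p = 0.0285), where 4116 of 23845 genes passed. With single libraries left out, 0 to 3 passed. The adipocyte covariate gave 3 and the lymphocyte covariate 2, but neither held the 4 PM calls of Thrsp or Pnpla3. At 4 PM 34 and 0 of 19977 genes passed with these covariates.

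Some tests crossed the threshold with another setting. Variation of Thrsp over time within Ad-Lib passed with DESeq2 (adjusted p = 0.0171) and the lymphocyte or adipocyte covariate (0.0219 and 0.00242). Variation of Pnpla3 over time within TAN passed with at least 10 counts in every library (0.0489), DESeq2 (0.0309), limma voom (0.00385), the covariates (0.00285 and 3.83e-04), the replicate number as a block (0.0489) and without the libraries of low lymphocyte sum (0.0104), and ranged from 0.00405 to 0.244 with single libraries left out. The TAN effect between time points passed for Pnpla3 with limma voom (0.0426), the covariates (0.0309 and 0.00908) and without the libraries of low lymphocyte sum (0.0459), ranging from 0.0223 to 0.251 with single libraries left out. For Txnip it was lost with the lymphocyte covariate (0.131), without the libraries of low lymphocyte sum (0.279) and with same-numbered libraries as a replicate block (0.0769), and ranged from 0.00884 to 0.0618 with single libraries left out. The mean over the day passed for Pnpla3 without TAN replicates 1 and 2 of 8 PM (0.58, adjusted p = 0.0140) and for Txnip with the adipocyte covariate (-0.32, adjusted p = 0.0364). The cause of these changes was not tested.

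None of the differences that changed sign was past the threshold in the fit of all libraries or after the change. Pnpla3 at 8 PM, which turned in 1 setting, passed as lower under TAN in others, at -1.05 to -1.45. Thrsp at 8 PM became -0.074 with limma voom, -0.039 and -0.055 with the covariates, -0.012 with the replicate block and -0.56 without the libraries of low lymphocyte sum. Pnpla3 at 4 AM became 0.11, 0.19, 0.16, 0.10 and 0.31 under the same 5 settings. Pnpla3 became -0.11 at 12 AM with the lymphocyte covariate and 0.21 at 8 PM without TAN replicates 1 and 2, where Arrdc4 became 0.33. Arrdc4 at 4 AM became -0.082 without the libraries of low lymphocyte sum. With single libraries left out, Thrsp at 8 PM ranged from -0.58 to 0.77, Pnpla3 at 4 AM from -0.42 to 0.31, and Arrdc4 from -0.075 to 0.22 at 8 AM, -0.48 to 0.10 at 8 PM and -0.10 to 0.14 at 4 AM. The lipogenic minus glucose-sensing difference of TAN minus Ad-Lib at 8 PM became 0.55 for Thrsp minus Txnip alone and 0.62 without TAN replicates 1 and 2, and ranged from -0.66 to 0.14 with single libraries left out. At 4 AM it ranged from -0.24 to 0.56. Without the libraries of low lymphocyte sum some sizes moved without a change of sign or call. At 12 PM Thrsp moved from 0.93 to 1.71 and Pnpla3 from 0.69 to 1.27. At 12 AM Pnpla3 moved from 0.60 to 0.17 and Txnip from 0.29 to 0.12.

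With 4 libraries a group and the spread of Thrsp and Pnpla3 between mice, the SE of a difference at a single time point was 0.54 to 0.55 for Thrsp and 0.47 to 0.48 for Pnpla3. The lowest count of any of the 4 genes in a library was 386.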
